A study of Mus musculus with 20 samples.

Results

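The 10 genes described here encode the basal glucose transporter and 9 proteins of the glycolytic pathway: Slc2a1, Hk1, Hk2, Pfkp, Pfkfb3, Aldoa, Pgk1, Eno1, Pkm and Ldha. They were taken by name, as every probe that the array design assigns to one of these symbols, with Pkm also accepted under its older name Pkm2. This gave 26 of 56605 probes and 10 of 25043 named genes. 3 of the genes had 1 probe and 7 had several. The choice of genes used no measured value, but it was made with earlier results of these arrays known.

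Gene expression was measured in whole intestinal tissue of C57BL6/j mice on 1-colour Agilent arrays. Cre control (6 arrays) are VillinCreER/0 mice, in which the Villin promoter drives a tamoxifen-inducible Cre recombinase in the gut epithelium. BRAFV600E (6 arrays) are VillinCreER/0/BrafV600E-LSL/+ mice, in which the same Cre switches on the mutant kinase from its own locus. Both groups were 8 to 12 weeks old, received 3 daily doses of 2 mg tamoxifen and were sampled 3 days after the last dose. MEKi (4 arrays) and Vehicle (4 arrays) are a separate experiment: 2 injections of tamoxifen (100 µl of 10 mg/ml each) were followed by 3 daily injections of the MEK inhibitor PD184352, prepared in DMSO, Cremophor EL and water, or of vehicle. The labels do not give the genotype or age of these animals, and a legend of the study names them as BrafV600E mice. The first comparison asks what the oncogene changes, the second what blocking the kinase below it changes in mutant tissue. The controls carry the same Cre and had the same tamoxifen in the first experiment, and all mice of the second had tamoxifen. Which sample came from which animal is not in the labels, so p-values measure the spread between these samples.

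Some arrays stood apart. All 6 Cre control arrays and BRAFV600E replicates 1 and 2 lay on slide 1, and BRAFV600E replicates 3 to 6 lay on slide 2, on which the spike-in slope was recorded as 0, so slide and genotype can be told apart only within slide 1. The MEKi and Vehicle arrays shared slide 3, with MEKi in row 1 and Vehicle in row 2, so that row and treatment cannot be told apart. The mean log2 level of 7 enterocyte markers was 5.28 on BRAFV600E replicate 2 and 7.03 to 7.62 on the other arrays of its group. Exocrine pancreas markers were at 7.38 on Vehicle replicate 2 and at -3.16 or lower on the other Vehicle arrays. The labels carry 1 treatment text for all arrays, a statin given to female mice, which matches no group described by the study, and Y-linked genes were high on 13 of 20 arrays: on 3 of 6 Cre control, 4 of 6 BRAFV600E, 4 of 4 MEKi and 2 of 4 Vehicle arrays. None of the 6 epithelium markers was at background throughout a group, and their mean level ranged from 5.66 to 6.71 over the 20 arrays. The probe for Braf does not separate the mutant from the normal transcript; its log2 level was -0.82 to 0.11 in BRAFV600E and -1.22 to -0.43 in Cre control. As a check of the pathway, 9 of 12 genes that follow ERK activity were higher in BRAFV600E and 5 of 12 were lower in MEKi.

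Glucose enters epithelial cells from the blood side through facilitated transporters, of which SLC2A1 (GLUT1) is the form found in most growing cells, while SLC2A2 and SLC5A1 carry dietary glucose across the enterocyte. Hexokinase traps glucose inside the cell, phosphofructokinase commits it to glycolysis, and the later enzymes convert it to pyruvate, which lactate dehydrogenase can reduce to lactate. Many of these genes are textbook targets of the hypoxia-inducible factor HIF1 and of MYC, and several steps are served by isoforms, one typical of proliferating cells and another of differentiated enterocytes or liver.

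The stretches before the gene starts are shown for the 4 genes called in BRAFV600E and for Ldha, whose brightest probe did not pass the test. With slide as a block, 3 of the 4 calls ended. The windows were chosen because they hold 1 form of the short core to which HIF1 is known to bind. The core searched was ACGTG alone, read on both strands, so that its reverse complement CACGT counts as well. Other forms of the HIF1 core, such as GCGTG, were not searched or marked. A window counted here as without the core may hold one of them. The MYC and ChREBP site CACGTG, called an E-box, contains the core on both strands. In RefSeq promoters of assembly GRCm38.p6, cut to the 250 bases before each start, the core stood in 9 of 18 windows of the 10 genes against 16.6% of 32841 windows of all genes, and in a window of 7 of the 10 genes, against 18.5% of all genes. Windows of 1 gene can overlap, and 2 of these 9 are windows of Aldoa that hold the same match. Many of the 10 genes are textbook targets of HIF1, so the comparison with all genes is descriptive and was not tested. An E-box stood in 2 of the 18 windows, 1 of Pfkfb3 and 1 of Ldha, against 6.02% of all windows. The capitals mark the core or its reverse complement, and every sequence runs 5′ to 3′ along the gene's own strand and ends at the base before the start.
Slc2a1, chr4:119108495-119108744, plus strand: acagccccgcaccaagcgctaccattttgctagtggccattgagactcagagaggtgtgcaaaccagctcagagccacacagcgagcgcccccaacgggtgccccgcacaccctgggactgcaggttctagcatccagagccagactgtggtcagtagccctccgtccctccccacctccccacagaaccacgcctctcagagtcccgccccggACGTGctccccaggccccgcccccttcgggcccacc
Pfkfb3, downstream start, chr2:11502091-11502340, minus strand: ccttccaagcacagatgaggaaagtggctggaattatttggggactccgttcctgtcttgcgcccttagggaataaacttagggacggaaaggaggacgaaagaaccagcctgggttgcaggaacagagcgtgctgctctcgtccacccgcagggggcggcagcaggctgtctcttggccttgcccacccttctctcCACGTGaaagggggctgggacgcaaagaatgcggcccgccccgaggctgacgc
Pfkfb3, upstream start, chr2:11553930-11554179, minus strand: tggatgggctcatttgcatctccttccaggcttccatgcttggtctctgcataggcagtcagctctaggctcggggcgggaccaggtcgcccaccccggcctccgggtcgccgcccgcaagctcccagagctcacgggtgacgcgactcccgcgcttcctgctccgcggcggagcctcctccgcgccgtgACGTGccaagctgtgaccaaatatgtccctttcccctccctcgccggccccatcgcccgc
Aldoa, chr7:126799255-126799504, minus strand: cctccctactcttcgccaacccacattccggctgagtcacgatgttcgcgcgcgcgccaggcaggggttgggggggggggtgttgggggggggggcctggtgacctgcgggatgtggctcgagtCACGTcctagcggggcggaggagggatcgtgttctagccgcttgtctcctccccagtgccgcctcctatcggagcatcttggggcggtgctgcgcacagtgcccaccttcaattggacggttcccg
Pgk1, chrX:106186850-106187099, plus strand: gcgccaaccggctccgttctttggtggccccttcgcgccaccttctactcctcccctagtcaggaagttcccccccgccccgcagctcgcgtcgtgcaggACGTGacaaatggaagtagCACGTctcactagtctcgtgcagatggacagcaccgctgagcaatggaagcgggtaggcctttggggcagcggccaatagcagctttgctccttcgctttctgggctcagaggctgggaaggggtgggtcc
Ldha, chr7:46845554-46845803, plus strand: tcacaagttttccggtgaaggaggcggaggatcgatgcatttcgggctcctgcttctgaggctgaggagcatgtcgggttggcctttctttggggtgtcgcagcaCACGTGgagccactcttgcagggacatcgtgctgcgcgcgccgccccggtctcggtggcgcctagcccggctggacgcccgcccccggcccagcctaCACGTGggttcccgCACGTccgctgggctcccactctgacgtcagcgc
Slc2a1 held 1 core at position -36, the upstream start of Pfkfb3 1 at -60, its downstream start 1 E-box with matches at -53 and -52, and this start of Aldoa 1 at -126. Pgk1 held 2, at -150 and -131. Ldha held 5 matches, of which those at -145 and -144 and those at -48 and -47 are each 1 E-box read on both strands, and the last lies at -34. The windows not shown that hold the core are the other of Aldoa, 1 of Hk2, at -226 and -52, and 1 of Pkm, at -75. A match is a match of letters, and no binding was measured.

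Slc2a1 was the member with the largest difference after induction of the oncogene. Values are log2 signals relative to the 75th percentile of each array, and a level of 0 is the signal of that percentile. The Slc2a1 probe (chr4:118809864-118809923 on mm9, plus strand) read from 0.21 to 0.72 in Cre control, with a median of 0.43, and from 2.08 to 2.61 in BRAFV600E, with a median of 2.26. Every mutant array lay above every control array, by more than the spread within either group. The difference was 1.83 ± 0.14 (SE), or 3.57-fold, with an adjusted p of 1.57e-05 from limma with Benjamini-Hochberg adjustment over 19036 genes, the test used for every adjusted p of a gene in this comparison.

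**Figure D1:**
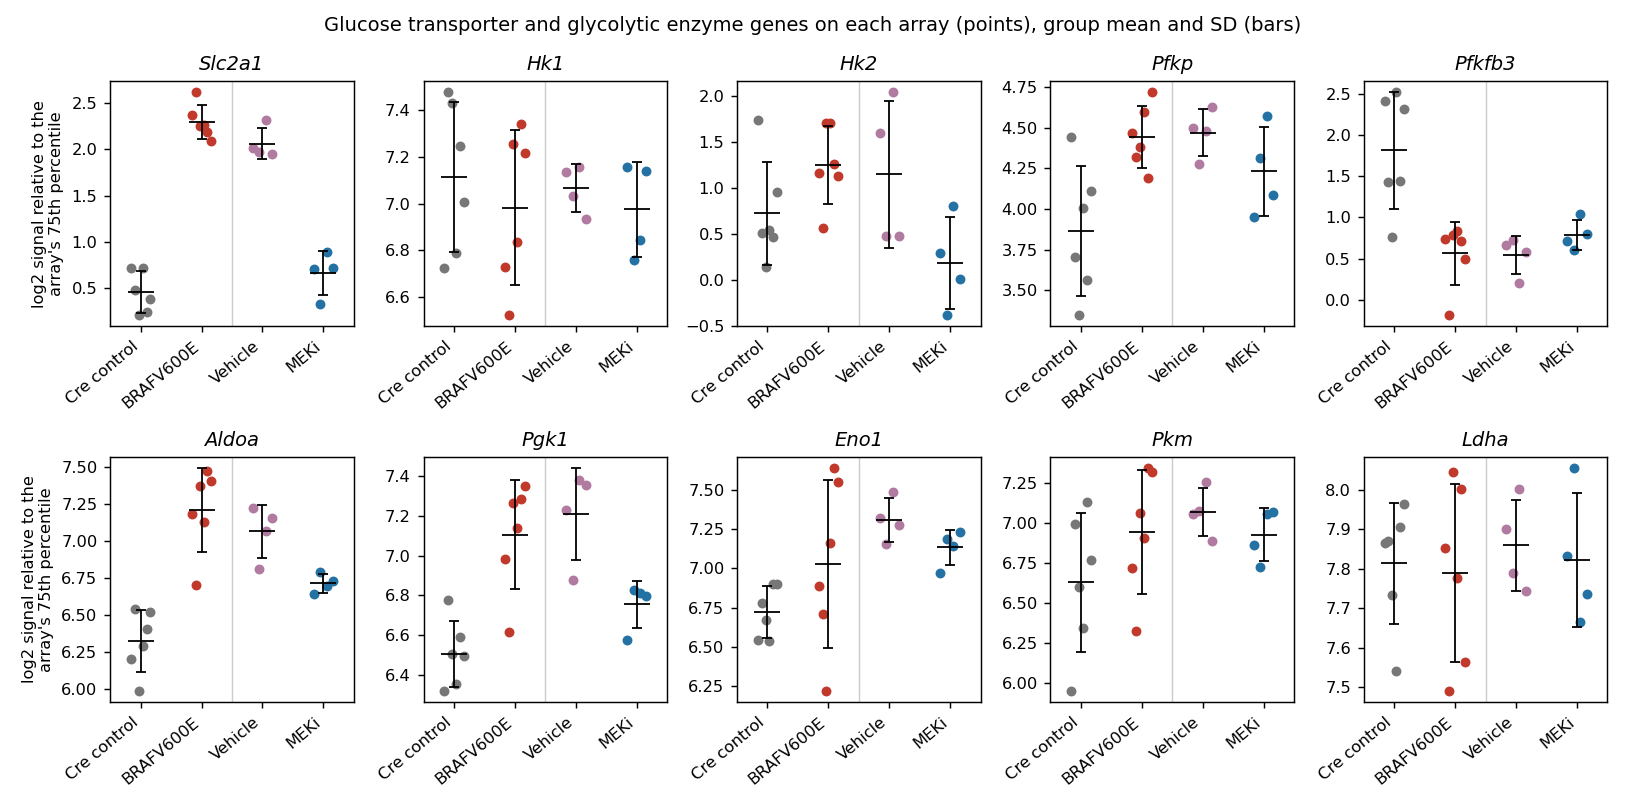
log2 signal of the probe that stands for each of the 10 genes on every array (vertical axes, relative to the array's 75th percentile; each panel has its own range) in the 4 groups (horizontal axes). Points are arrays and bars the group mean and SD; the 6 BRAFV600E arrays of Slc2a1 lie between 2.08 and 2.61, all above the Cre control arrays, and the 4 MEKi arrays lie between 0.33 and 0.90, all below the Vehicle arrays.

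Of the 10 genes, 3 were higher in BRAFV600E (Slc2a1, Aldoa and Pgk1) and 1 was lower (Pfkfb3), where 6.18% of all genes tested were called higher and 6.26% lower. The median difference of the 10 was 0.42, beside -0.02 over all genes tested, and 7 of the 10 were above 0. For 2 of the 10, Slc2a1 and Aldoa, mutant and control arrays were fully apart, where 7.36% of all genes tested did not overlap. These are whole-tissue values, in which more cells of a type and more RNA per cell cannot be told apart.

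At the hexokinase step, the first reaction of the pathway, neither of the 2 members passed the test. Hk2, the inducible hexokinase of growing cells and muscle, read 0.14 to 1.74 in Cre control (median 0.53) and 0.57 to 1.70 in BRAFV600E (median 1.22). Its groups overlapped, with Cre control replicate 1 at 1.74 above all mutant arrays, and the difference was 0.53 ± 0.27 with an adjusted p of 0.208. Without Cre control replicate 1 it was 0.73, with an adjusted p of 0.0483. That was the 1 call among the 12 fits without 1 array, whose adjusted p ran up to 0.372. With slide as a block Hk2 differed by 0.14 (adjusted p = 0.836). Hk1, the constitutive hexokinase, read 6.73 to 7.48 in Cre control (median 7.13) and 6.52 to 7.34 in BRAFV600E (median 7.03) on its brightest probe, a difference of -0.13 with a 95% interval of -0.54 to 0.28.

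Of the 2 members at the phosphofructokinase step, 1 passed the test. Pfkp, the platelet-type phosphofructokinase, read 3.35 to 4.44 in Cre control (median 3.85) and 4.19 to 4.72 in BRAFV600E (median 4.42). The groups overlapped through Cre control replicate 1 at 4.44, and the difference of 0.58 ± 0.18 had an adjusted p of 0.0555, or 0.0217 without that array. Among the 12 fits without 1 array this was the 1 call for Pfkp, with adjusted p up to 0.113. With slide as a block Pfkp differed by 0.53 (adjusted p = 0.233). Pfkfb3 makes fructose bisphosphate of the kind that activates phosphofructokinase. It read 0.76 to 2.52 in Cre control, with a median of 1.88, and -0.19 to 0.83 in BRAFV600E, with a median of 0.72. Only Cre control replicate 3, at 0.76, reached into the range of the mutant arrays. Pfkfb3 was lower by 2.38-fold (log2 difference -1.25 ± 0.31, adjusted p = 0.021), and it stayed past the threshold in each of the 12 fits that left out 1 array.

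Aldoa, the aldolase of muscle and growing cells, read 5.99 to 6.54 in Cre control (median 6.35) and 6.70 to 7.47 in BRAFV600E (median 7.28), with no overlap. It was 1.85-fold higher (0.88 ± 0.16, adjusted p = 0.0044). Pgk1, phosphoglycerate kinase, the first step that yields ATP, read 6.32 to 6.78 in Cre control (median 6.50) and 6.62 to 7.35 in BRAFV600E (median 7.20). A single mutant array, replicate 2 at 6.62, lay within the control range. Pgk1 was 1.51-fold higher (0.60 ± 0.15, adjusted p = 0.021), and both genes kept their calls in all 12 fits without 1 array.

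The members at the last steps of the pathway did not pass the test on their brightest probes. Eno1, the common enolase, read 6.53 to 6.90 in Cre control and 6.22 to 7.64 in BRAFV600E, with a difference of 0.31 and a 95% interval of -0.18 to 0.79. Pkm, pyruvate kinase of growing cells and muscle, read 5.95 to 7.13 in Cre control and 6.32 to 7.34 in BRAFV600E, with a difference of 0.31 and an interval of -0.18 to 0.81. Ldha, which reduces pyruvate to lactate, read 7.54 to 7.96 in Cre control and 7.49 to 8.04 in BRAFV600E, with a difference of -0.03 and an interval of -0.31 to 0.26. The groups overlapped for all of these genes, and the intervals leave room for changes in either direction.

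**Figure D2:**
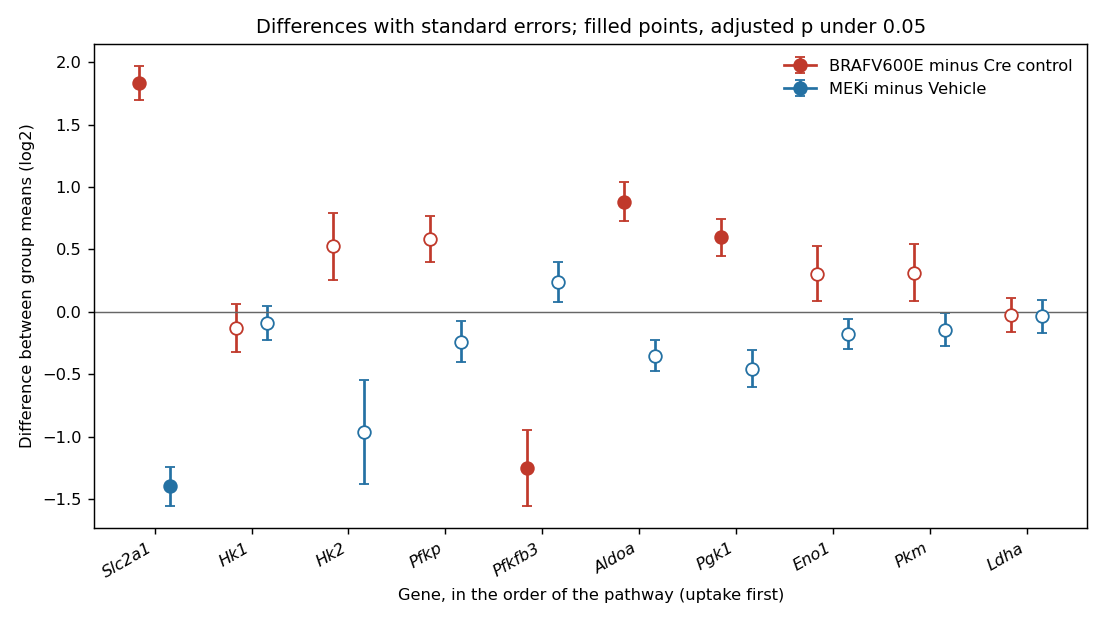
Difference between group means (log2, vertical axis) with its standard error for each gene (horizontal axis, from uptake to lactate) in the comparisons BRAFV600E minus Cre control and MEKi minus Vehicle; filled points have an adjusted p under 0.05. Slc2a1 stands out in both, at 1.83 and -1.40, and Pfkfb3 is the called gene below 0 in the first comparison, at -1.25.

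Slide moved with the smaller differences. With slide as a block, which here equals the 2 mutant arrays of slide 1 against the 6 controls beside them, Slc2a1 differed by 2.03 (adjusted p = 0.000209; 0.00245 within slide 1 alone). Pfkfb3 differed by -1.54 (adjusted p = 0.0514; 0.132 within slide 1) and Aldoa by 0.61 (adjusted p = 0.075; 0.155 within slide 1). For Pgk1 the difference fell to 0.29 (adjusted p = 0.293; 0.402 within slide 1). The median of the 10 genes was 0.11 in that fit, beside 0.42 without the block. On the 5 arrays whose spike-in slope was in range, 3 Cre control and 2 BRAFV600E, Slc2a1 differed by 1.88 with an adjusted p of 0.0586, and none of the 10 genes passed. The mean of the 4 mutant arrays of slide 2 differed from the controls by 1.74 for Slc2a1, 1.02 for Aldoa, 0.75 for Pgk1 and -1.11 for Pfkfb3. Slc2a1 and Pfkfb3 were thus at least as far from the controls on slide 1 as on slide 2, whereas Aldoa and Pgk1 were farther on slide 2. Slide 1 rests on 2 mutant arrays, so these values are imprecise. Of these, replicate 2, the array with low enterocyte markers, read lowest of the mutant arrays for Aldoa (6.70), Pgk1 (6.62) and Pfkfb3 (-0.19). It read highest for Slc2a1 (2.61). Replicate 1 read 7.18 for Aldoa, 6.98 for Pgk1, 0.74 for Pfkfb3 and 2.37 for Slc2a1. The part of replicate 2 in the slide contrast was not tested.

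Probes of one gene did not always move alike, and for Hk1, Ldha, Eno1 and Pkm a dimmer probe moved more than the brightest. The Hk1 probe of highest signal had a mean of 7.04 over the 20 arrays and differed by -0.13. A second Hk1 probe (chr10:61731856-61731915 on mm9, minus strand), with a mean of 1.59, read 0.59 to 1.20 in Cre control (median 1.02) and 1.70 to 3.18 in BRAFV600E (median 2.19). These groups did not overlap, and the difference was 1.27 ± 0.24 (adjusted p = 0.00744 with every probe tested). For Ldha, the brightest probe had a mean of 7.82 and differed by -0.03, and a probe at chr7:54103010-54103069, with a mean of 2.44, differed by 0.74 (adjusted p = 0.0295). That second Ldha probe read 1.96 to 2.61 in Cre control and 3.11 to 3.27 on the mutant arrays other than replicate 6, which read 2.23. Eno1 had a probe of mean 0.98 that differed by 0.74 (adjusted p = 0.0329), beside 0.31 on its probe of mean 7.01. The Pkm probe of mean 1.48 differed by 0.66 with an adjusted p of 0.0763, beside 0.31 and 0.26 on the probes of mean 6.87 and 6.24.

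Of the 24 member probes tested, 7 passed the test, 6 higher and 1 lower, where 10.1% of all 31303 probes tested passed in either direction, and 18 of the 24 differences were above 0. The other 2 of the 26 probes, 1 of Hk1 and 1 of Pfkfb3, were not well above background on enough arrays to be tested. Pfkp had 5 probes with differences from -0.51 to 0.58, none of which passed. A second probe named Pgk1 lies on the minus strand, opposite to the gene, and differed by -0.96 with an adjusted p of 0.107. A like pattern of brightness stood outside these genes: for 71 genes other than the 10 with a probe of mean 6 or more and another between 0 and 4, the median absolute difference was 0.27 on the bright probes and 0.40 on the dimmer ones, and 4 of the bright and 19 of the dimmer probes passed. No spot was marked as saturated. The part of brightness in these differences was not tested.

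**Figure D3:**
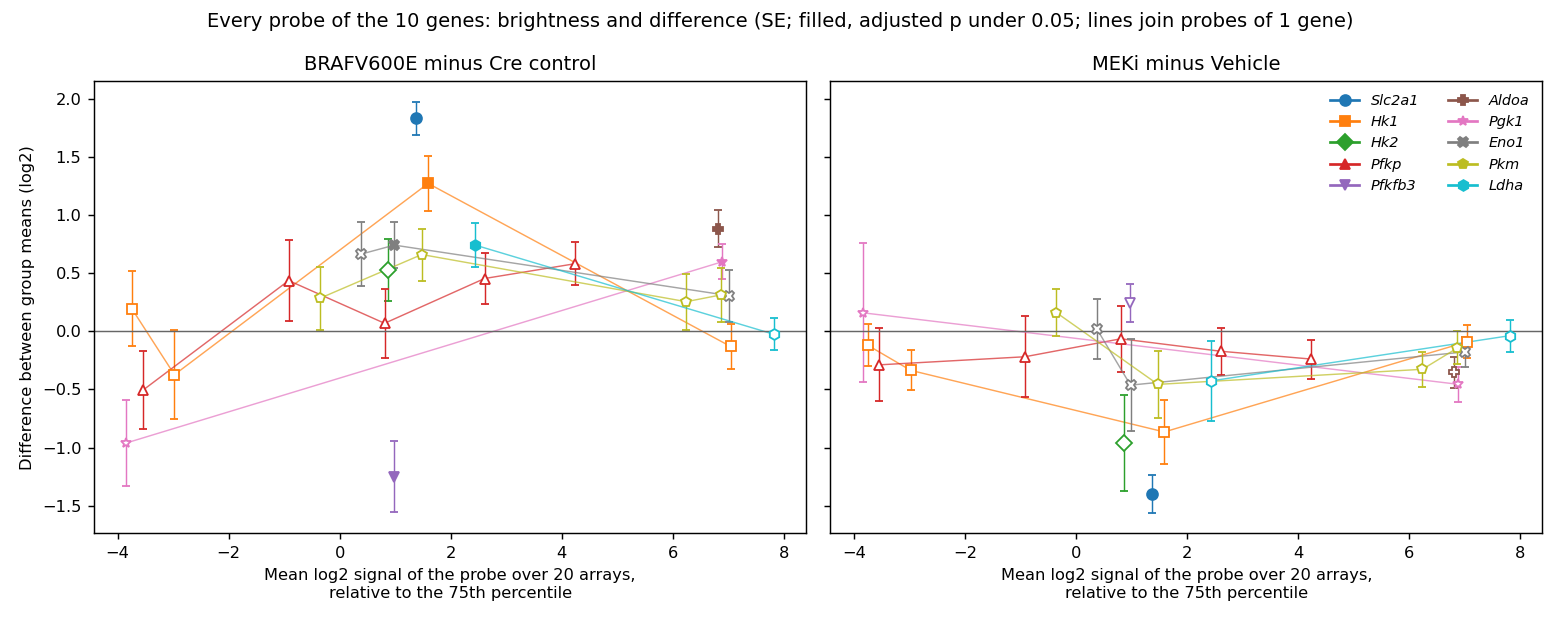
Difference between group means (log2, vertical axes, with SE) against the mean log2 signal of each tested probe over 20 arrays (horizontal axes), for BRAFV600E minus Cre control and MEKi minus Vehicle; colours and symbols mark the 10 genes, lines join probes of 1 gene, and filled symbols have an adjusted p under 0.05 with every probe tested. In the first comparison the Hk1 probe of mean 1.59 lies at 1.27 and the Hk1 probe of mean 7.04 at -0.13.

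The balance between isoforms was tested as the difference between the log2 signals of 2 genes on the same array. Subtracting 1 value from a whole array, as the scaling here does, leaves it unchanged. Quantile normalization and normexp background can change it, as the last section shows. It compares shifts of that difference between groups and not the levels of the 2 genes. In BRAFV600E the balance of Slc2a1 over Slc2a2, the transporter of enterocytes and liver, was shifted by 1.27 on the log2 scale, with 4 of 6 mutant arrays above all controls (exact permutation test over arrays, two-sided, p = 0.00649, and 0.0325 adjusted over a family of 10 tests), and the call was lost in 7 of 12 tests without 1 array. Ldha shifted by 0.61 over Ldhb, the form that favours lactate as a substrate (exact p = 0.0173, adjusted p = 0.0577). Hk2 over Hk1 and Pkm over Pklr, the pyruvate kinase of liver, shifted by 0.66 and -0.45 (exact p = 0.104 and 0.128, both 0.142 after adjustment). On slide 1 alone, the shift of Slc2a1 over Slc2a2 was 1.13, with an adjusted p of 0.204 in an exact test of 2 against 6 arrays, which cannot give a p under 0.0714 and so could not pass.

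**Figure D4:**
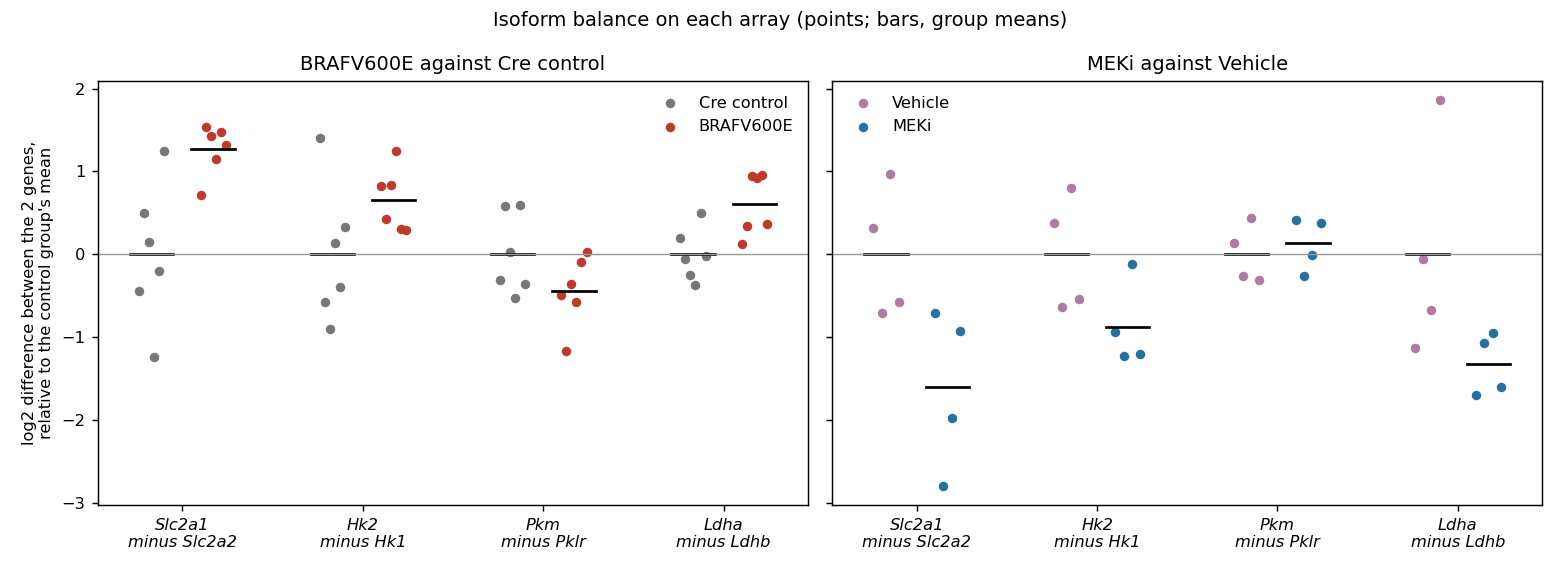
log2 difference between the 2 genes of a pair on each array, set relative to the mean of Cre control or of Vehicle (vertical axis), for 4 pairs (horizontal axes) in both comparisons; points are arrays and bars group means. For Slc2a1 minus Slc2a2 the 6 BRAFV600E arrays lie from 0.72 to 1.54, the Cre control arrays from -1.24 to 1.24 and the 4 MEKi arrays from -2.80 to -0.71.

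Among the other 25 genes of glycolysis, 24 could be tested, of which 5 were higher and 2 lower in BRAFV600E, with a median of 0.21. Over all genes tested, 6.18% were called higher and 6.26% lower. The 2 largest differences belonged to isoforms of the same steps. Aldoc, the brain-type aldolase, read 1.24 to 2.72 in Cre control and 3.73 to 4.24 in BRAFV600E, a 3.26-fold difference (1.71 ± 0.23, adjusted p = 0.000819), and its 2 other tested probes were called higher as well. Pfkl, the liver-type phosphofructokinase, read -0.19 to 0.73 and 1.48 to 2.44, a 2.94-fold difference (1.56 ± 0.20, adjusted p = 0.000679), although its 2 other probes differed by 0.01 and 0.64 and did not pass. Both held within slide 1, at 1.74 for Aldoc (adjusted p = 0.0452) and 1.17 for Pfkl (adjusted p = 0.0465).

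The other called genes of this list moved less. Pklr was higher by 0.76 (adjusted p = 0.00869), Pgam1, phosphoglycerate mutase, by 0.65 (adjusted p = 0.0309), and Pfkfb2 by 0.42 (adjusted p = 0.0438). Eno2, the neuronal enolase, differed by -0.69 (adjusted p = 0.0242) and Ldhb by -0.63 (adjusted p = 0.0256). Pklr held in all fits without 1 array, whereas leaving out 1 of the 12 arrays ended the call of Pgam1 in 7 fits, of Pfkfb2 in 10, of Eno2 in 4 and of Ldhb in 3, with adjusted p up to 0.0951. With slide as a block Eno2 kept its call, and the adjusted p was 0.0644 for Pklr, 0.278 for Pgam1, 0.199 for Pfkfb2 and 0.281 for Ldhb.

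The 4 lists on either side of the pathway held called genes as well, where 6.18% of all genes tested were called higher and 6.26% lower. Of 17 genes of lactate export and pyruvate entry, 3 were higher and none lower, with a median of 0.13. They were Slc16a3, the lactate exporter MCT4 (1.12, adjusted p = 0.0232), its chaperone basigin, Bsg (0.82, adjusted p = 0.0169), and Pdk1, a kinase that shuts off pyruvate dehydrogenase (0.96, adjusted p = 0.0104). Leaving out 1 array, BRAFV600E replicate 6, moved the adjusted p of Slc16a3 to 0.051, and with slide as a block the 3 differed by 0.53, 0.81 and 0.44 with adjusted p of 0.332, 0.092 and 0.183. Of 8 genes of the pentose phosphate pathway, 2 were higher, G6pdx and Pgd, the enzymes that yield NADPH (0.77 and 0.97, adjusted p = 0.00415 and 0.00949). With slide as a block G6pdx differed by 0.68 (adjusted p = 0.0492) and Pgd by 0.54 (adjusted p = 0.16), and the 2 other tested probes of Pgd differed by -0.22 and 0.00. In gluconeogenesis and fructolysis, 2 of 10 were higher, Pcx and Pck2 (0.97 and 0.49, adjusted p = 0.0228 and 0.0163), and Fbp1, which opposes phosphofructokinase, differed by -1.36 (adjusted p = 0.0257). With slide as a block none of these 3 calls was kept: Pcx, Pck2 and Fbp1 differed by 1.03, 0.40 and -1.69 with adjusted p of 0.0961, 0.133 and 0.0587. Of 16 other hexose transporters, none was higher and 2 were lower: Slc2a7 (-0.69, adjusted p = 0.0284) and Slc5a4b (-1.67, adjusted p = 0.0417). With slide as a block 4 of the 16 were lower. Slc2a7 differed by -0.92 (adjusted p = 0.0422; 0.107 within slide 1) and Slc5a4b by -2.92 (adjusted p = 0.00503; 0.0121 within slide 1). That block fit rests on BRAFV600E replicates 1 and 2, and replicate 2 had low enterocyte markers. Fits without 1 array lost the call of Fbp1 in 2 of 12, of Slc2a7 in 4 and of Slc5a4b in 8, with adjusted p up to 0.0849. The list medians were 0.31 for the pentose phosphate pathway, -0.21 for gluconeogenesis and fructolysis and -0.42 for the hexose transporters. Slc2a2, which carries dietary glucose, differed by 0.56 and did not pass (adjusted p = 0.358).

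Hypoxia-responsive genes outside the pathway had the highest median of the pathway lists. Of 17, 9 were higher and none lower in BRAFV600E, where 6.18% of all genes tested were called higher and 6.26% lower. On the brightest probes all 17 differences were above 0, the lowest that of Egln1 at 0.0002. The median was 0.70, beside -0.02 over all genes tested. Of 3 other tested Vegfa probes, 1 was above 0 and the lowest was at -1.80, and the other P4ha1 probe differed by -0.26. The other tested probes of Bnip3l, Car9 and Kdm3a were above 0. Egln3, a prolyl hydroxylase that marks HIF for decay, read -0.38 to 0.39 in Cre control and 1.88 to 2.97 in BRAFV600E, a 5.14-fold difference (2.36 ± 0.21, adjusted p = 4.18e-05). Car9, carbonic anhydrase IX, read 2.71 to 3.34 and 4.50 to 5.12, a 3.58-fold difference (1.84 ± 0.15, adjusted p = 2.22e-05). Ankrd37 was 3.69-fold higher (adjusted p = 0.00695), and the mitophagy receptor Bnip3l and the oxidoreductase Ero1a were 1.65-fold and 1.57-fold higher (adjusted p = 0.0119 and 0.00302). With slide as a block, 5 of these genes were called, and the list's median was 0.63. In that fit Egln1 and Mxi1 lay below 0, at -0.23 and -0.21, and Bnip3 was at 0.03. The mRNA of Hif1a, named here after its values were seen, differed by 0.56 ± 0.29 (adjusted p = 0.221), while its 2 other tested probes differed by 1.01 and 3.23, of which 1 passed. On its brightest probe the sign turned with slide as a block, at -0.17 (adjusted p = 0.759), and on arrays with spike-in slope in range, at -0.24 (adjusted p = 0.824). Of 12 transcription factors known to act on glycolysis genes, Myc was higher by 0.94 (adjusted p = 0.0488), while its 1 other tested probe differed by -0.16, and 3 were lower, Mycn, Mlxipl and Ppargc1a, by -0.97, -0.50 and -0.73 (adjusted p = 0.00514, 0.0488 and 0.0113). The call of Myc was lost in 10 of 12 fits without 1 array, with an adjusted p up to 0.104. The call of Mlxipl was lost as often. With slide as a block Ppargc1a was the 1 of these 4 that kept its call, and the adjusted p was 0.084 for Myc, 0.0735 for Mycn and 0.0963 for Mlxipl. The median of the 12 was 0.14. Neither of 2 glucose-sensing targets of ChREBP passed.

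**Figure D5:**
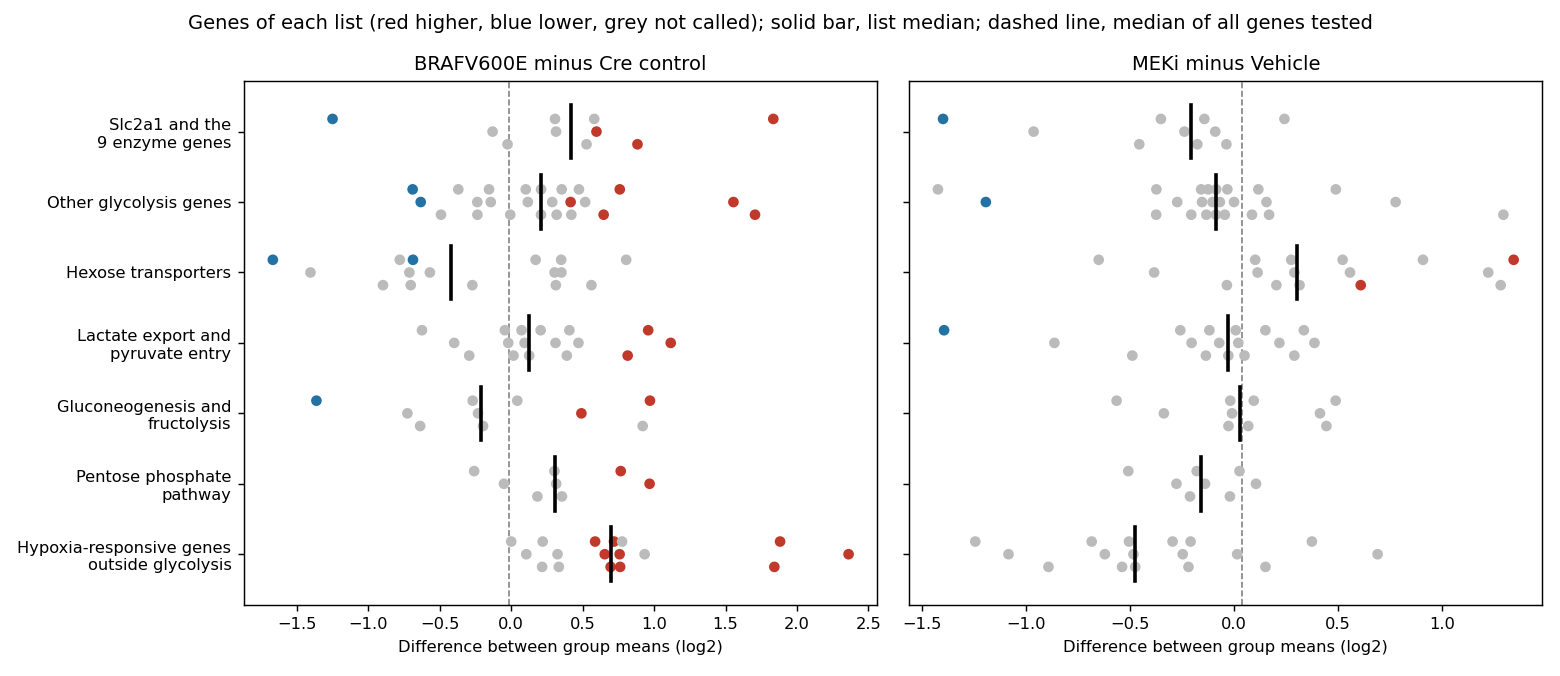
Difference between group means (log2, horizontal axes) of each tested gene of 7 lists (rows) in BRAFV600E minus Cre control and MEKi minus Vehicle; red points are called higher, blue points lower and grey points neither, solid bars are list medians and the dashed line is the median of all genes tested. In the first comparison the 17 hypoxia-responsive genes all lie above 0, the lowest at 0.0002, with a median of 0.70. In the second their median is -0.47 with no gene called.

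Other cell types and states moved with these differences in the tissue. The counts below stand beside 6.18% of all genes tested called higher and 6.26% called lower. Of 7 cycling cell markers, 3 were higher in BRAFV600E, with list levels of 0.89 to 1.53 against 0.49 to 1.11. Of 6 T lymphoid markers, 3 were lower, with levels of -1.32 to 0.17 against -0.30 to 0.77, and of 6 myeloid markers, 2 were lower, with levels of 2.32 to 3.10 against 2.63 to 3.47. Of 6 epithelium markers, 2 were higher, with levels of 5.99 to 6.60 against 5.66 to 6.11, and of 6 smooth muscle markers, 2 were higher, with levels of 3.01 to 3.91 against 2.78 to 3.44. Of 7 enterocyte markers, 1 was higher, Alpi (1.84, adjusted p = 0.00225), and the other 6 lay below 0 and did not pass. The levels of this list were 5.28 to 7.62 against 7.38 to 7.96, and its median was -0.44, or -1.01 with slide as a block, where 3 of the 7 were called lower. The block fit rests on BRAFV600E replicates 1 and 2, whose levels of this list were 7.03 and 5.28. Of 5 adipocyte markers, 1 was lower, with levels of -3.98 to 0.24 against -1.64 to 1.23, and of 4 tested exocrine pancreas markers, 1 was higher. No B lymphoid, red cell or endothelial marker was called. Their part in the glycolysis differences was not tested. Without BRAFV600E replicate 2, the array with low enterocyte markers, the same count of 3 of the 10 genes was called higher.

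In the mice given the MEK inhibitor, Slc2a1 was the member with the largest difference. It read 0.71, 0.33, 0.90 and 0.72 on the 4 MEKi arrays and 2.02, 1.97, 2.31 and 1.95 on the 4 Vehicle arrays. Each MEKi array lay more than 1 log2 unit below the lowest Vehicle array. Slc2a1 was lower by 2.63-fold (log2 difference -1.40 ± 0.16, adjusted p = 0.00835 over 19230 genes). It was the only 1 of the 10 genes called, where 1.09% of all genes tested were called higher and 0.884% lower. The call held in all 8 fits without 1 array, with adjusted p from 0.013 to 0.037, and without Vehicle replicate 2, the array with pancreas RNA, the difference was -1.43. With Y-linked signal in the model it was -1.50 (adjusted p = 0.0478), and with the array column as a block the adjusted p was 0.0515.

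The other 9 genes did not pass, and 8 of their differences were below 0. Pgk1 read 6.58, 6.83, 6.81 and 6.80 in MEKi and 7.23, 6.88, 7.38 and 7.35 in Vehicle, without overlap, a difference of -0.46 with an adjusted p of 0.174. Aldoa read 6.64, 6.79, 6.69 and 6.73 in MEKi and 7.22, 6.81, 7.07 and 7.15 in Vehicle, also without overlap, a difference of -0.35 with an adjusted p of 0.21. Together with Slc2a1, 3 of the 10 genes did not overlap, where 12.2% of all genes tested did not. Hk2 read 0.30, -0.38, 0.81 and 0.02 in MEKi and 1.60, 0.48, 2.04 and 0.48 in Vehicle. Its groups overlapped, and the difference of -0.96 ± 0.41 had an adjusted p of 0.299. Pfkfb3, the gene that was called lower in BRAFV600E, read 0.71, 0.60, 1.03 and 0.80 in MEKi and 0.67, 0.73, 0.21 and 0.58 in Vehicle, a difference of 0.24 with a 95% interval of -0.12 to 0.61.

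For Pfkp, Eno1, Pkm, Hk1 and Ldha the differences were -0.24, -0.18, -0.14, -0.09 and -0.04 on the brightest probe, with adjusted p from 0.539 to 0.93. The dimmer Hk1 probe, which was called higher in BRAFV600E, read 1.47, 0.66, 1.18 and 1.09 in MEKi and 1.60, 2.70, 1.79 and 1.78 in Vehicle, without overlap and with a difference of -0.87 (adjusted p = 0.2). Of the 24 member probes tested, 20 differences were below 0 and 1 passed, where 1.21% of 31854 probes passed. The median of the 10 genes was -0.21, beside 0.04 over all genes tested. Of the 10 genes, 8 had differences of opposite sign in the 2 comparisons, which share no array, and so had 70.2% of the 18573 genes tested in both, so the members' share is not far from that of all genes.

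None of these 4 balances passed the test in this experiment, in which 4 against 4 arrays cannot give an exact p under 0.0286. Slc2a1 over Slc2a2 shifted by -1.60, with all 4 MEKi arrays below all Vehicle arrays (exact permutation test, two-sided, p = 0.0286, adjusted p = 0.0714). Ldha over Ldhb shifted by -1.33 and Hk2 over Hk1 by -0.87 (exact p = 0.0857 and 0.114, both 0.142 after adjustment). Pkm over Pklr shifted by 0.13 (exact p = 0.657). Ldhb itself read -3.01 to 0.13 in Vehicle and -0.28 to 0.63 in MEKi.

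Pfkl was the 1 gene of the other 24 tested glycolysis genes to be called in this comparison. It read 0.56 to 1.67 in MEKi and 2.11 to 2.51 in Vehicle, lower by 2.28-fold (-1.19 ± 0.23, adjusted p = 0.0478), but the call was lost in 7 of 8 fits without 1 array, with adjusted p up to 0.15. Aldoc read 1.72 to 3.09 and 3.21 to 4.32, without overlap, a difference of -1.42 with an adjusted p of 0.103. The list's median was -0.09. Of the lactate and pyruvate genes, Pdp1, the phosphatase that switches pyruvate dehydrogenase on, was lower (-1.39, adjusted p = 0.0145), and Slc16a3 differed by -0.49 (adjusted p = 0.299). Of the other hexose transporters, the fructose transporter Slc2a5 and Slc2a7 were higher in MEKi (0.61 and 1.34, adjusted p = 0.0387 and 0.0228), calls lost in 8 and 4 of the 8 fits without 1 array, with adjusted p up to 0.118.

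No hypoxia-responsive gene passed the test in MEKi, with 4 of 17 differences above 0 and a median of -0.47. Car9 read 3.18 to 3.83 in MEKi and 4.28 to 5.38 in Vehicle, without overlap, a difference of -1.08 with an adjusted p of 0.0981. Egln3 differed by -1.24 and Bnip3l by -0.47 (adjusted p = 0.284 and 0.0795). No gene of gluconeogenesis and fructolysis or of the pentose phosphate pathway passed, with list medians of 0.03 and -0.16. None of the 12 transcription factors passed, with Myc at a 2.01-fold lower level (adjusted p = 0.113) and Hif1a at -0.65 (adjusted p = 0.577). No marker of another cell type was called, although T lymphoid levels ran from -0.54 to 0.64 in MEKi and from -1.18 to -0.35 in Vehicle, and all 6 of their differences were above 0. Their part in the values above was not tested.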

How the data were processed

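Total RNA from mouse intestinal tissue was measured on 20 1-colour Agilent mouse arrays. The deposited files hold, per the file headers, spot intensity values made by the authors with Agilent Feature Extraction 10.5.1.1: the mean and background signal, the processed signal (background subtracted, linear scale), and 0 or 1 marks for spots above background, saturated or outlying. A deposited value table holds the same processed signal, also on the linear scale. Its log2 values, computed here, were used as the unscaled alternative. From these, log2 processed signal minus the 75th percentile of each array was computed, outlier spots were left out and copies of a probe averaged. Probe coordinates are the design's (mm9); whether a probe lies in an exon or UTR was not analysed here. Names were updated through a RefSeq table (GRCm38.p6). The probe of highest mean over the 20 arrays stood for a gene, and genes had to be well above background on a share of at least 0.5 of the arrays compared.

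Each experiment was fitted alone with limma 3.58.1 (R 4.3.3), with no covariate, and called at an adjusted p under 0.05 (Benjamini-Hochberg over all genes). Isoform pairs had exact permutation tests (scipy 1.17.1), adjusted over 10 tests; 1 pair is not reported here. The fits were tested on simulated data. The named genes are the 10 genes, the isoform partners, every called gene of the other glycolysis list and at most 5 called genes of each other list by lowest p. The genes and lists were chosen with earlier results of these data known. Alternatives changed the scaling, background correction, filter, probe choice, array weights, variance prior, slide, array column, Y-linked signal, spike-in range and samples. Well-above-background spots made up 60.8% to 76.8% of an array, and the number of arrays limits the precision.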

Additional observations from a re-analysis of the deposited data

Results flagged for a closer look

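In 9 of 96 groups of arrays, 1 array lay far from the rest by Dixon's criterion, where chance gives about 5%, so a few such values are to be expected from chance alone. Among the brightest probes, Pfkfb3 read -0.19 on BRAFV600E replicate 2 and 0.49 to 0.83 on the others of its group, and Pgk1 read 6.58 on MEKi replicate 1 and 6.80 to 6.83 on the others.

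The rest were dimmer probes. The second Hk1 probe read 0.59 on Cre control replicate 5, with the others from 0.99 to 1.20, and 2.70 on Vehicle replicate 2, with the others from 1.60 to 1.79. The second Ldha probe read 2.23 on BRAFV600E replicate 6, with the others from 3.11 to 3.27. The second Pfkp probe read 2.95 on Vehicle replicate 4, with the others from 2.67 to 2.70, and the fifth read -4.58 on Cre control replicate 2, with the others from -3.43 to -2.85. The third Pkm probe read 1.49 on BRAFV600E replicate 5, with the others from 1.71 to 1.79, and the fourth read -1.03 on MEKi replicate 1, with the others from -0.46 to -0.40.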

How the results depend on the processing

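No paired analysis was possible because the replicate numbers follow the order of deposit and the labels tie no sample of one group to one of another. Slide moves with genotype except on slide 1, array row with MEK inhibitor treatment throughout, and 4 against 4 arrays is few; where a cause is not named below, it was not tested. Without scaling between arrays, the median of all genes in BRAFV600E was 0.79, and calls are relative to that shift.

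In BRAFV600E against Cre control, 2369 genes were called in all, against 9334 without scaling, 4640 with normexp background, 3746 with array weights, 1535 with slide as a block, 734 within slide 1, 29 on arrays with spike-in slope in range, and 1442 to 2860 without 1 array. The 3 members called higher became 9 without scaling, 5 with array weights, 1 with slide as a block and within slide 1, 0 in the spike-in range, and 3 to 5 without 1 array. The 5 other glycolysis genes called higher became 17 without scaling, 3 with the Y-linked covariate, 2 with slide as a block and within slide 1, 0 in the spike-in range, and 3 to 5 without 1 array. The 9 hypoxia-responsive genes became 17 without scaling, 5 with slide as a block, 3 within slide 1, 0 in the spike-in range, and 7 to 10 without 1 array.

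In MEKi against Vehicle, 380 genes were called, against 72 without scaling, 234 with no filter, 1211 with array weights, 53 with the Y-linked covariate, 16 with array column as a block, and 76 to 376 without 1 array. The 1 member called lower became 0 without scaling and with the column block, 3 with array weights, and stayed 1 without any 1 array. The 1 other glycolysis gene became 0 without scaling, with no filter, every probe tested, the mean of probes, the Y-linked covariate or the column block, 2 with all 20 arrays in 1 fit, and 0 to 1 without 1 array. The 0 hypoxia-responsive genes called lower became 3 with array weights, 2 with all 20 arrays and 1 with a trended, robust prior, and 0 to 1 without 1 array; at an unadjusted p under 0.05, limma gave 3148 genes over the whole array.

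Of the isoform pairs in BRAFV600E, Slc2a1 over Slc2a2 was 1.14 with normexp (adjusted p = 0.0571), 1.13 within slide 1 (adjusted p = 0.204, where no exact p under 0.0714 is possible) and 1.03 to 1.52 without 1 array. Ldha over Ldhb was 0.95 with quantile normalization (adjusted p = 0.0108), 0.93 with the mean of probes (adjusted p = 0.0325) and 0.53 to 0.71 without 1 array. Hk2 over Hk1 was 0.48 to 0.94 and Pkm over Pklr -0.55 to -0.30 without 1 array. In MEKi no pair could pass with 3 against 4 arrays.

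Signs turned in BRAFV600E without scaling for Hk1 (0.68), Ldha (0.78), Eno2 (0.12), Ldhb (0.18), Slc2a7 (0.12), Mlxipl (0.31) and Ppargc1a (0.0825), and with the mean of probes for Hk1 (0.24), Ldha (0.36) and Pgk1 (-0.18). The mean for Pgk1 includes the dim probe on the strand opposite to the gene, which differed by -0.96. Hk2 was -0.21 in the spike-in range, and Pkm -0.11 with slide as a block and within slide 1. Ldha was 0.32 with quantile normalization, 0.0118 with array weights, and -0.0795 to 0.0342 without 1 array (0.005 without Cre control replicate 6, 0.0342 without BRAFV600E replicate 2 and 0.0194 without BRAFV600E replicate 6). For Hk1, MEKi against Vehicle gave 0.0101 with quantile normalization, and for Ldha, MEKi against Vehicle gave 0.0154 without MEKi replicate 3 and 0.0109 without Vehicle replicate 3.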
